A study of Mus musculus with 13 samples.

Results

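The genes described here encode 8 transcription factors of the hepatocyte programme, Hnf4a, Foxa1, Foxa2, Foxa3, Cebpa, Cebpb, Onecut1 and Prox1, taken by symbol from the 22367 protein-coding genes of the GENCODE M1 annotation of mm9. All 8 symbols were found. For each gene, the regions of 8 ChIP-seq lists were counted at the promoter (from 250 bp before to 250 bp after the annotated 5′ end), over the gene, and in a window made of the gene and 50 kb to each side. ChIP-seq recovers the DNA that an antibody pulls down with a protein or a histone mark and calls regions where reads pile up.

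Hepatocytes are held in their state by a small network of factors that bind one another's genes. HNF4A is a nuclear receptor that drives many genes of metabolism and blood protein production, the FOXA factors open closed chromatin at liver enhancers, C/EBPα and C/EBPβ are leucine zipper factors of differentiation and of the acute phase response, ONECUT1 (also called HNF6) acts in hepatocyte and bile duct development, and PROX1 is a homeobox factor of hepatoblast growth. Such genes usually sit among many enhancers, which carry H3K4me1 and, when active, H3K27ac. KAP1, the product of Trim28, is a corepressor brought to DNA by zinc finger proteins. It is best known as a scaffold for machinery that places the silencing mark H3K9me3 and includes the methyltransferase SETDB1.

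All lists came from Hepa 1-6 cells, a line derived from a mouse hepatoma. Cells in standard culture served for KAP1, H3K27ac, H3K4me1 and H3K9me3. For RNA polymerases II and III (PolII and PolIII), cells were fixed 5 days after they received either a control shRNA (control) or an shRNA against KAP1 (Kap1 KD). Each group held 1 library, so no value here has a replicate error, no test of a condition was possible, and a region says that enrichment was called, not how strong it was. The lists held 12470 regions for KAP1, 57562 for H3K27ac, 74014 for H3K4me1, 66242 for H3K9me3, 5015 (control) and 12862 (Kap1 KD) for PolII, and 2772 (control) and 431 (Kap1 KD) for PolIII. How many reads each list rests on is unknown. No KAP1 list of the Kap1 KD cells was analysed here, so the depletion was not checked from these files. The study itself measured it by RT-qPCR, which was not analysed here. As a check of the cell type, 8 genes of secreted hepatocyte proteins were examined. H3K27ac lay at the promoter in 4 of them (Alb, Afp, Trf and Fgb), where 20.0% of all protein-coding genes had it. Each of the 8 had at least 2 H3K27ac regions in its window, as did 66.8% of all genes. H3K4me1 was at the promoter of Apoa2 alone and Kap1 KD PolII at that of Trf alone, control PolII was at none of the 8, and Apoa1, Ttr and Ahsg had no list there. None of 11 transcription factor genes of muscle, nerve, blood and other lineages had H3K27ac, H3K4me1 or PolII at the promoter. Absence of control PolII therefore did not set these genes apart from the hepatocyte markers.

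The promoters fell into different combinations of lists. H3K27ac was listed at Hnf4a, Foxa2 and Foxa3, which makes 3 of 8 genes (37.5%, 95% Wilson interval 13.7 to 69.4%, counting error only) against 20.0% of all protein-coding genes. KAP1 was listed at Cebpa, Cebpb and Prox1, again 3 of 8, against 15.7% of all genes. The KAP1 count fell to 1 gene (Cebpb) with only the peaks above the median score. The H3K27ac count fell to 1 gene (Foxa2) with 100 bp to each side. PolII was listed at Foxa2, Cebpa and Cebpb in both conditions, against 13.1% of all genes in the control and 23.3% under Kap1 KD. H3K4me1 was at 1 promoter, Foxa2, against a background of 11.9%. The interval for 3 of 8 includes the backgrounds of H3K27ac, KAP1 and Kap1 KD PolII, and its lower bound lies just above that of control PolII. The 8 genes were chosen and not drawn at random, so the interval does not test any of these differences. No promoter had H3K9me3 (background 5.24%), control PolIII (0.344%) or Kap1 KD PolIII (0.134%). No gene had both KAP1 and H3K27ac within 250 bp of its 5′ end. At Prox1, however, the KAP1 peak reached into H3K27ac and H3K4me1 regions further inside the gene. The share of all promoters with both KAP1 and H3K27ac was not counted, so their absence together among 8 genes has no background. Elsewhere they did occur together. Of 1496 promoters with KAP1 and PolII of both conditions, 990 (66.2%) had H3K27ac. Foxa1 and Onecut1 had no list at the promoter, as was true of 58.5% of all genes. An active mark, H3K27ac or H3K4me1, was thus present at the promoters of Hnf4a, Foxa2 and Foxa3, compared with 24.8% of all promoters.

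**Figure D1:**
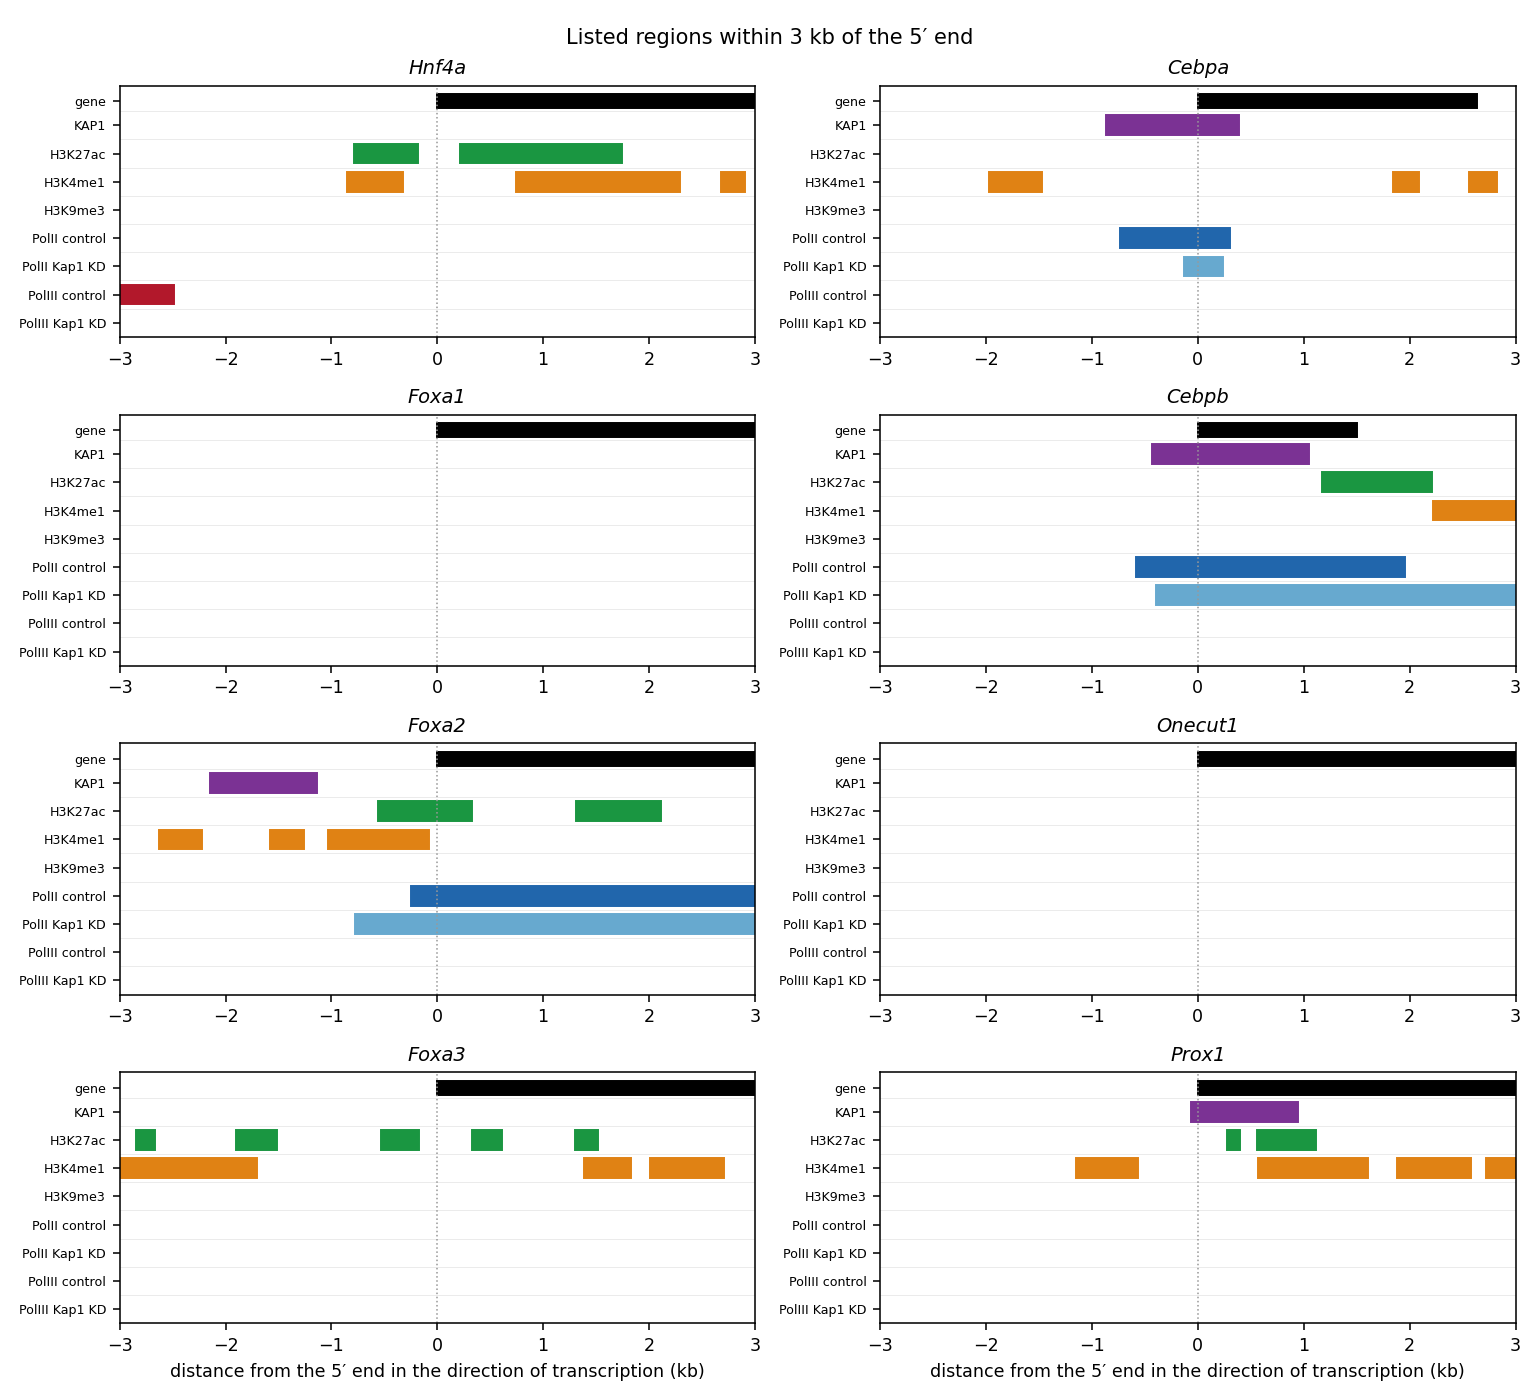
Listed regions within 3 kb of the 5′ end of each gene, drawn by distance from the 5′ end in the direction of transcription (kb), with 1 row per list and the gene in black. Foxa2 has H3K27ac and PolII across its start and H3K4me1 just before it, Cebpa and Cebpb have KAP1 and PolII there without H3K27ac, and Foxa1 and Onecut1 are empty.

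The median number of active regions around the genes was above that of all genes. The windows held between 0 and 17 H3K27ac regions with a median of 7, where the median of all genes was 4. For H3K4me1 the range was 0 to 28 and the median 11.5, where that of all genes was 5. Per 100 kb of window the medians were 6.33 H3K27ac and 9.77 H3K4me1 regions, beside 2.66 and 3.55 over all genes. At least 1 H3K27ac region was in the windows of 7 genes, all but Onecut1, against 75.5% of all genes, and the same held for H3K4me1 with a background of 79.5%. These marks made up 5.13% (H3K27ac) and 8.38% (H3K4me1) of the window in the median gene of the group, and 1.42% and 2.47% over all genes. The medians moved by more than 1.5 times with the choice of window. Within 10 kb of the gene they were 2.5 (H3K27ac) and 4.5 (H3K4me1), beside 1 and 2 over all genes. Counting only regions nearest to the gene gave 2.5 and 5, beside 1 and 1 over all genes, and merging regions under 1 kb apart gave 4.5 and 8, beside 2 and 4.

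**Figure D2:**
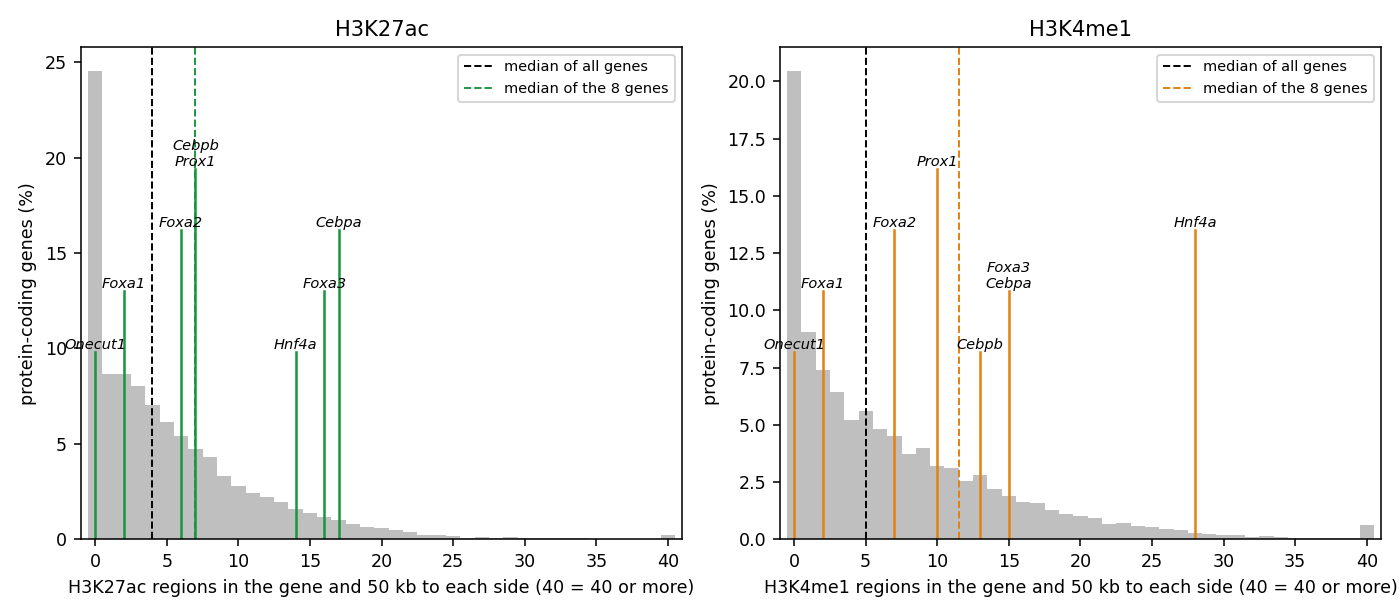
Number of H3K27ac (left) and H3K4me1 (right) regions in the gene and 50 kb to each side, over all 22367 protein-coding genes (grey bars, % of genes), with the 8 genes marked by vertical lines. The 8 genes spread from 0 to 17 and from 0 to 28, on both sides of the medians of 4 and 5 for all genes.

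The genes differed widely among themselves. Cebpa (17 H3K27ac regions), Foxa3 (16) and Hnf4a (14) had counts reached by 5.66%, 6.82% and 9.77% of all genes, respectively. Per 100 kb of window the shares were 2.45%, 3.92% and 14.9%. By the part of the window covered they were 6.16%, 12.4% and 15.6%. Cebpb and Prox1 had 7 H3K27ac regions each and Foxa2 had 6. Foxa1 had 2, which 66.8% of all genes reached, and Onecut1 had 0. The order by H3K4me1 was similar, with 28 at Hnf4a, 15 at Foxa3 and Cebpa, 13 at Cebpb, 10 at Prox1, 7 at Foxa2, 2 at Foxa1 and 0 at Onecut1. Of the 69 H3K27ac regions, 50 overlapped an H3K4me1 region (72.5%), close to the 67.8% of the whole H3K27ac list. In the other direction 47 of 90 H3K4me1 regions overlapped H3K27ac (52.2%), where the whole list gave 49.1%. A window does not assign a region to a gene. The nearest protein-coding 5′ end was that of the transcription factor itself for 27 of the 69 H3K27ac regions and 39 of the 90 H3K4me1 regions.

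**Figure D3:**
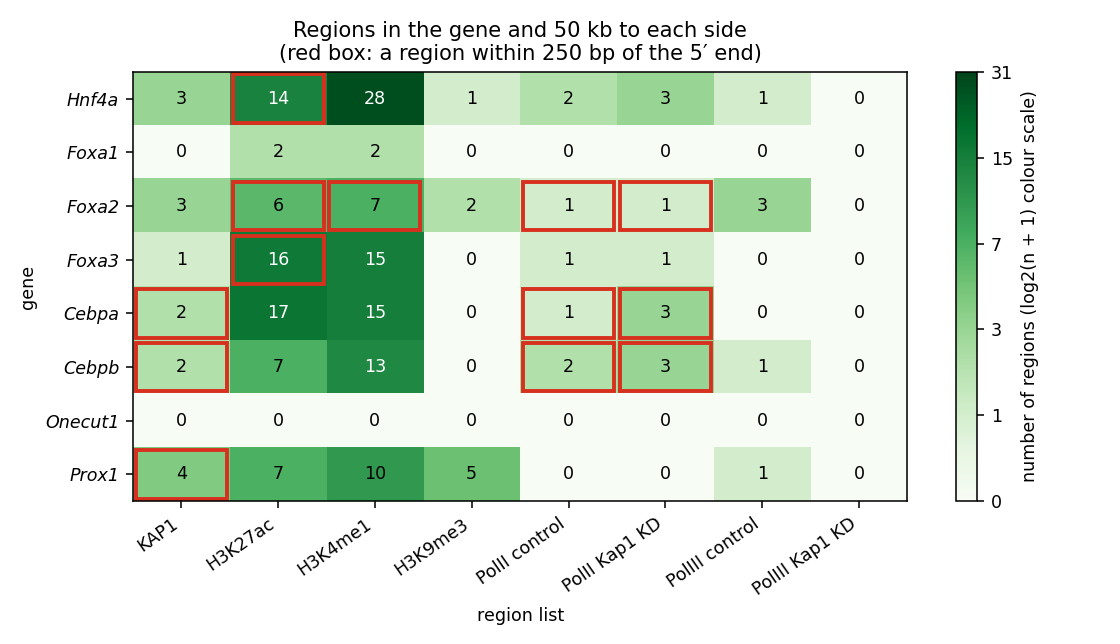
Number of regions of each list (columns) in the gene and 50 kb to each side for each gene (rows), printed in the cell and shaded on a log2(n + 1) scale. A red box marks a region within 250 bp of the 5′ end. Onecut1 has 0 in every column, and the Kap1 KD PolIII column is 0 for all 8 genes.

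Over the genes themselves, H3K27ac was listed in 5 (Hnf4a, Foxa2, Foxa3, Cebpb and Prox1, background 41.6%) and H3K4me1 in 6 (all but Cebpb and Onecut1, background 50.8%). KAP1 lay over the same 3 genes as at the promoters (background 24.3%), as did PolII in the control (17.0%) and under Kap1 KD (30.0%). No gene held H3K9me3 (23.5%) or Kap1 KD PolIII (0.586%), and control PolIII lay over Prox1 alone (3.55%). In the windows, KAP1 was near 6 genes (56.0% of all genes), H3K9me3 near 3 (66.8%), PolII near 5 in each condition (37.5% for the control list and 56.2% for Kap1 KD), and PolIII near 4 in the control (11.6%) and 0 under Kap1 KD (3.72%).

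**Figure D4:**
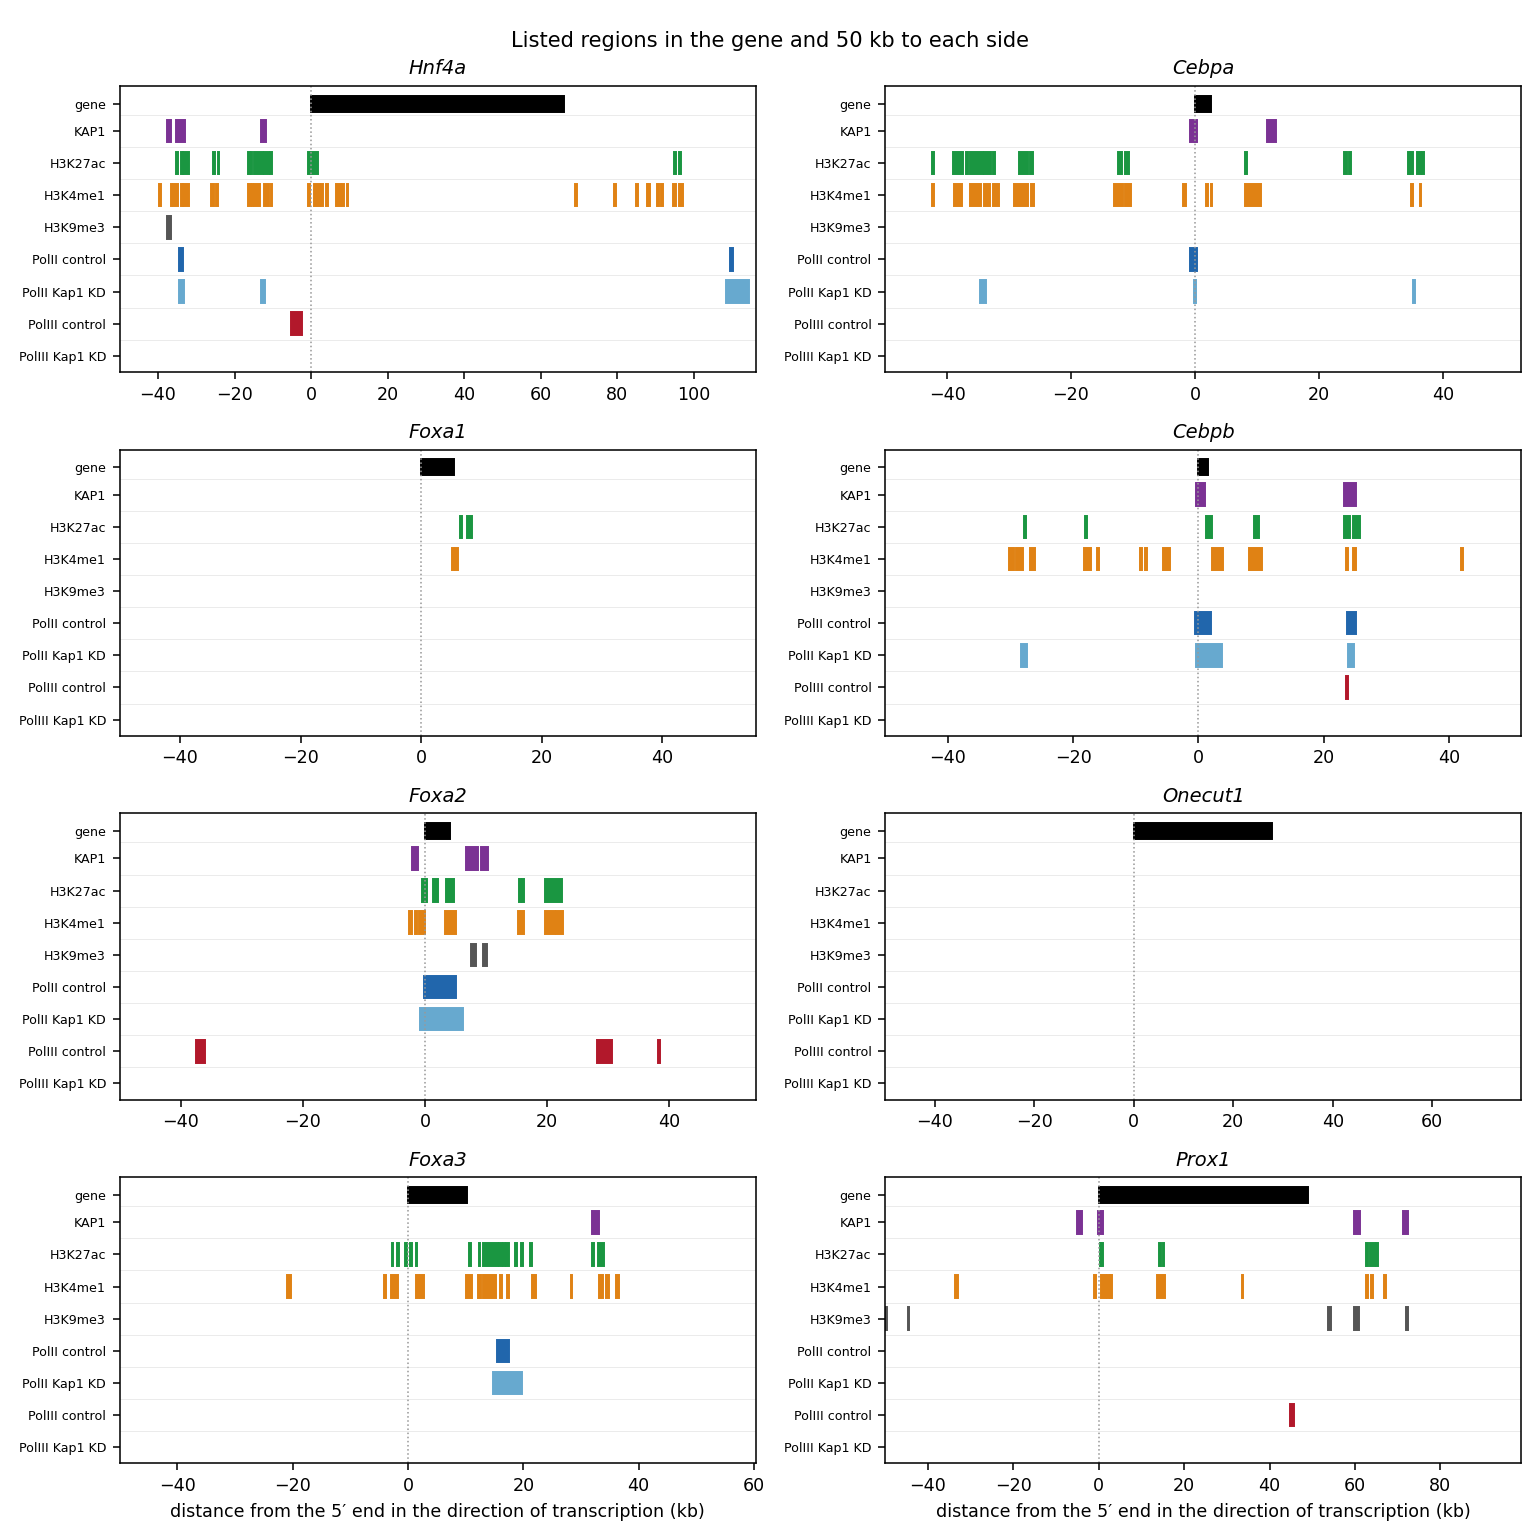
Listed regions in each gene and 50 kb to each side, by distance from the 5′ end in the direction of transcription (kb), with 1 row per list and very short regions widened to stay visible. Hnf4a, Foxa3 and Cebpa have long runs of H3K27ac and H3K4me1, and in Foxa3 most of the run lies beyond the gene.

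Hnf4a (ENSMUSG00000017950.9) spans chr2:163332544-163398646 on the plus strand. It has 7 annotated transcripts with 7 different starts, and the 5′ end of the gene is the start of Hnf4a-002. The gene is known to have an upstream promoter, used in the fetal liver and in pancreatic islets, and a downstream promoter, used in the adult liver. H3K27ac lay on either side of the upstream start, from 789 to 178 bp before it and from 217 to 1749 bp after it, without a PolII peak. The second of these regions ranked 8378 by width among 57562. The starts of Hnf4a-001 and Hnf4a-201 lay 40.4 kb further into the gene. No list had a region within 250 bp of them, and the nearest H3K27ac and H3K4me1 regions were 38.6 and 28.5 kb away. The 250 bases before each of the 2 starts are shown because the marks separate them, and capitals mark matches to the motifs listed further on. They lie at chr2:163332294-163332543 and chr2:163372673-163372922 of mm9, both on the plus strand.
Hnf4a upstream start: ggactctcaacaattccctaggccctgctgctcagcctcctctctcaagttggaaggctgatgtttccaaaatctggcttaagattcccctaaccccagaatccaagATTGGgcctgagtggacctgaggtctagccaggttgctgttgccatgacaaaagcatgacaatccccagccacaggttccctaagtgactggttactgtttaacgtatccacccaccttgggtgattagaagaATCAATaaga
Hnf4a-001 start: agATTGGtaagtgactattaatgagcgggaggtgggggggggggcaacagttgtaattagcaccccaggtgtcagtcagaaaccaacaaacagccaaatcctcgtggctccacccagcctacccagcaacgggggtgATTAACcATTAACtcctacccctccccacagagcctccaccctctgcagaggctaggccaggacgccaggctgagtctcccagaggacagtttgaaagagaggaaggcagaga

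The H3K4me1 regions over Hnf4a, 6 in number, all lay between 0.74 and 9.52 kb after the upstream start, and 1 of them overlapped H3K27ac. A further run of 10 H3K27ac regions lay before the gene, and each had its centre nearer to the start of Fitm2, 2310001K24Rik or R3hdml than to that of Hnf4a. The 3 KAP1 peaks of the window lay over those neighbours too. One of them, 37.6 to 36.5 kb before the start, overlapped the only H3K9me3 region of the window. PolII peaks were 33.5 kb or more from the upstream start in the control and 12.1 kb or more under Kap1 KD.

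Foxa2 (ENSMUSG00000037025.5, chr2:147868613-147872705, minus strand) was the only gene with H3K27ac, H3K4me1 and PolII of both conditions at the promoter. These 4 lists were present together at 2.24% of all promoters (500 genes), and with no other list, as at Foxa2, at 231. Its H3K27ac region covered the 5′ end, from 560 bp before it to 326 bp after it. This is the less common arrangement, since the 5′ end lay inside the region in 892 of the 4464 promoters with H3K27ac (20.0%). PolII was called in 1 peak over the whole gene. The control peak ran from 244 bp before the start to 5.11 kb after it, with a score of 209 (rank 316 of 5015). The Kap1 KD peak ran from 773 bp before to 6.15 kb after, with a score of 480 (rank 317 of 12862). The PolII scores cannot be set side by side between lists, because neither depth nor scale is known. All 6 H3K27ac regions of the window were nearest to Foxa2, and the widest, 2896 bp, lay 19.6 to 22.5 kb after the start.
The bases before the start, at chr2:147872706-147872955 on the minus strand, are shown as the most fully marked promoter of the group.
Foxa2: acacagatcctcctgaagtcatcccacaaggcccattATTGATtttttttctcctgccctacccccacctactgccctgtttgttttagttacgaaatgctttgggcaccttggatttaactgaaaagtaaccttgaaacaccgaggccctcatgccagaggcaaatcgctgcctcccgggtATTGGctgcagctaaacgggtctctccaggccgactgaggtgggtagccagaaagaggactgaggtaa

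KAP1 had 3 peaks near Foxa2. A peak 6.63 to 8.65 kb after the start, past the end of the gene, had a score of 1077.3 and ranked 470 of 12470. A second lay at 9.15 to 10.3 kb with a score of 170.21. Each overlapped an H3K9me3 region, and neither overlapped an active mark. The KAP1 peak closest to the start, 2146 to 1132 bp before it (score 80.1, rank 7987), overlapped H3K4me1.

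Foxa3 (ENSMUSG00000040891.5, chr7:19598631-19608887, minus strand) carried H3K27ac in small regions, from 531 to 174 bp before the start and from 323 to 613 bp after it. No PolII peak lay over the gene in either condition. The nearest began 15.4 kb after the start in the control and 14.7 kb under Kap1 KD, and both overlapped Irf2bp1. Of the 16 H3K27ac regions in the window, 3 were nearest to Foxa3. The widest of the others, 2642 bp, was nearest to Irf2bp1.

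Foxa1 (ENSMUSG00000035451.6, chr12:58641618-58647108, minus strand) differed from both of its paralogues. No list had a region at the promoter, and no KAP1, H3K9me3, PolII or PolIII region lay in the window. The window of Foxa3 lacked H3K9me3 and PolIII as well. The 2 H3K27ac and 2 H3K4me1 regions of Foxa1 lay between 5.18 and 8.38 kb after the start, at or just past the end of the gene. They did not overlap one another, and the longest was 710 bp. The nearest PolII peak was 1494 kb away in the control and 315 kb under Kap1 KD.

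Cebpa (ENSMUSG00000034957.9, chr7:35904312-35906945, plus strand) and Cebpb (ENSMUSG00000056501.3, chr2:167514415-167515918, plus strand) are genes without introns on different chromosomes that shared 1 arrangement, KAP1 and PolII of both conditions at the promoter without H3K27ac or H3K4me1. KAP1 and PolII of both conditions came together at 6.69% of all promoters, 1496 genes. Of those, 990 (66.2%) had H3K27ac and 449 (30.0%) had neither active mark. At Cebpa the KAP1 peak ran from 864 bp before to 392 bp after the start with a score of 91.95 (rank 6940). In the control, PolII ran from 737 bp before to 308 bp after it (score 42, rank 2298 of 5015) and from 135 bp before to 238 bp after it under Kap1 KD (score 25, rank 10631 of 12862). At Cebpb the KAP1 peak ran from 430 bp before to 1050 bp after the start with a score of 111.21 (rank 5639). Its PolII peak ended 1.96 kb after the start in the control (score 113, rank 636) and 3.74 kb after it under Kap1 KD (score 293, rank 601). Within the Kap1 KD list, Cebpb therefore ranked near the top and Cebpa low.

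The nearest H3K27ac region was 8.06 kb from the start of Cebpa and 1.17 kb from that of Cebpb. The GC content of both promoters was high. It was 70.7% at Cebpa and 79% at Cebpb over the 250 bp to each side of the start, and 11.1% and 1.16% of all promoters had at least as much. Among promoters with PolII in both conditions, H3K27ac was listed at 77.1% of those with a GC content under 50%, 80.4% of those from 50 to 60%, 61.3% of those from 60 to 70% and 32.8% of those of 70% or more. Over all promoters the shares in the same order were 9.20%, 25.1%, 28.0% and 13.4%. Foxa3, with a GC content of 68.3%, had H3K27ac. The part of GC content in the absence of H3K27ac at Cebpa and Cebpb was not tested. A second gene, Tmem189, has its 5′ end 907 bp after that of Cebpb on the other strand and runs across the Cebpb start, so PolII and KAP1 there cannot be told apart between both genes. The bases before the starts, at chr7:35904062-35904311 and chr2:167514165-167514414 on the plus strand, are shown because they carry the KAP1 and PolII peaks.
Cebpa: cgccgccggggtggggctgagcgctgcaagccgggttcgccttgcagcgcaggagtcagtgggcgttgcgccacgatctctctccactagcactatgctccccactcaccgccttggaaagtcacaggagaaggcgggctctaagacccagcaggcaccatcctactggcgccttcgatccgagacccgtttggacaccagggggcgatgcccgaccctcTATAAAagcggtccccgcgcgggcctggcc
Cebpb: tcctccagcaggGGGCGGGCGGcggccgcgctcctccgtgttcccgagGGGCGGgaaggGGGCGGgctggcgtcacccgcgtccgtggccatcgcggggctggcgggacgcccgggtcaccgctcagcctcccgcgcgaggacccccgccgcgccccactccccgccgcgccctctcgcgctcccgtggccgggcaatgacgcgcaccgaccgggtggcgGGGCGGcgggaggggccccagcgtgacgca

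Cebpa had its H3K27ac regions at a distance, with 10 before the gene, between 42.4 and 10.6 kb from the start, and 7 after it, and 12 of the 17 overlapped H3K4me1. The widest, 2001 bp, lay 36.3 to 34.3 kb before the start and overlapped a PolII peak under Kap1 KD only. It was nearer to Cebpg, a gene of the same family, and 7 of the 17 were nearest to Cebpa. A second KAP1 peak 11.7 to 13 kb after the start of Cebpa (score 280.15, rank 2046) overlapped no other list. None of the 7 H3K27ac regions near Cebpb had the Cebpb start as its nearest, and each was nearer to a Tmem189 start. At Cebpb a region 23.2 to 25.8 kb after the start held KAP1, H3K27ac, H3K4me1, PolII of both conditions and control PolIII.

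Prox1 (ENSMUSG00000010175.6, chr1:191945660-191994559, minus strand) had a KAP1 peak from 64 bp before to 943 bp after the start. Its score of 61.42 was low in the list (rank 10408 of 12470). H3K27ac began 273 bp after the start, just outside the promoter as defined here, and H3K4me1 lay on both sides of it. The KAP1 peak overlapped both marks. With promoters of 500 or 1000 bp to each side, Prox1 counted as having H3K27ac together with KAP1. The 2 higher KAP1 peaks, 59.8 to 61.1 kb and 71.2 to 72.3 kb after the start (scores 293.01 and 183.73), lay beyond the gene and each overlapped H3K9me3. No PolII peak was in the window, and the nearest was 211 kb away in the control and 103 kb under Kap1 KD.

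Onecut1 (ENSMUSG00000043013.7, chr9:74709728-74737591, plus strand) had no region of any list in its window, as did 4.74% of all genes. A window without H3K27ac and H3K4me1 was found for 16.7%. The nearest H3K4me1 and H3K27ac regions were 114 and 177 kb from its start. The nearest H3K9me3 region was 522 kb away, and 1.02% of all genes lay at least that far from one.

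Taking the KAP1 peaks near the 8 genes as a set, 15 were counted. H3K9me3 was under 5 of them, against 40.1% of all KAP1 peaks, and H3K27ac was under 5, against 42.0%. An active mark was under 7, against 47.9% of all KAP1 peaks, and 1 peak had both an active mark and H3K9me3, against 4.68%. The H3K9me3 regions of the windows numbered 8, in Prox1 (5), Foxa2 (2) and Hnf4a (1). Other transcription factor genes were counted in the same way at the promoter. Among 19 further hepatocyte factors KAP1 was at 3 (15.8%, beside 15.7% of all genes), H3K27ac at 6 (31.6%, beside 20.0%) and H3K4me1 at 5 (26.3%, beside 11.9%). PolII was at 3 in the control (15.8%, beside 13.1%) and at 5 under Kap1 KD (26.3%, beside 23.3%). H3K9me3 was at Klf15 alone (5.26%, beside 5.24%) and control PolIII at Nr1i3 alone (5.26%, beside 0.344%). No list was at the promoters of 8 of the 19 (42.1%, beside 58.5% of all genes), among which were Ppara and Gata4. Tbx3 had the combination seen at Cebpa and Cebpb. KAP1 was at the promoter in 3 of the 11 factors of other lineages (Neurod1, Neurog2 and Sox2, 27.3%), beside 15.7% of all genes. Sox2 also had H3K9me3 there, as had Klf15 among the 19, whereas none of the 8 genes did. The median number of H3K27ac regions in the window was 7 for the 19 hepatocyte factors and 1 for the 11 others, and of H3K4me1 regions 11 and 2. The sets overlapped. H3K27ac counts ran from 0 to 21 in the 19 and from 0 to 12 in the 11. H3K4me1 counts ran from 1 to 26 and from 0 to 26.

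**Figure D5:**
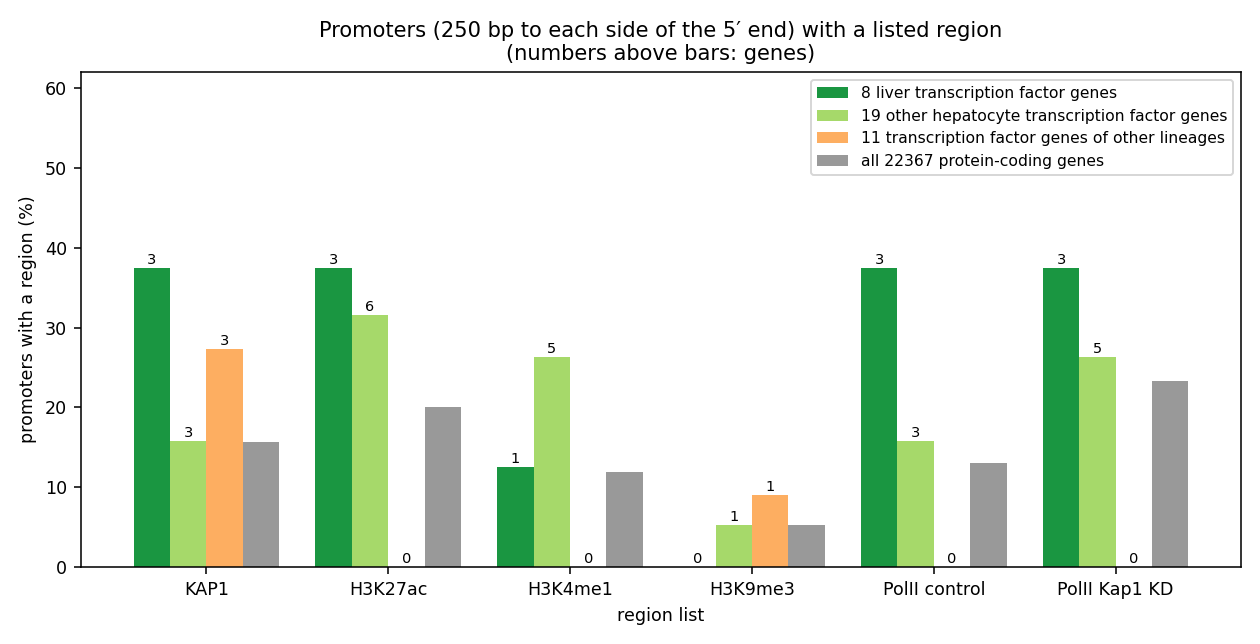
Share of promoters (%) with a region of each list for the 8 genes, 19 other hepatocyte transcription factor genes, 11 transcription factor genes of other lineages and all 22367 protein-coding genes, with the number of genes above the bars. H3K27ac, H3K4me1 and PolII are at 0 in the other lineages, and KAP1 is not.

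The comparison of control with Kap1 KD cells asks whether polymerase lists changed near these genes. The 3 promoters with a control PolII peak were the 3 with a Kap1 KD PolII peak, and the other 5 had none in either. Over all genes, 2941 promoters had control PolII and 2777 had PolII of both conditions, so a control peak kept under Kap1 KD was the general case. When the Kap1 KD list was reduced to as many highest-scoring peaks as the control list, Foxa2 and Cebpb kept a peak and Cebpa did not. In the windows PolII peaks numbered 7 in the control and 11 under Kap1 KD. Hnf4a went from 2 to 3, Cebpa from 1 to 3 and Cebpb from 2 to 3, while Foxa2 and Foxa3 had 1 in each. The Kap1 KD list was also longer as a whole, and the share of all genes with a PolII peak in the window was higher in it too. For PolIII, 6 control peaks lay near Foxa2 (3), Hnf4a (1), Cebpb (1) and Prox1 (1), and none under Kap1 KD. Those are the 4 genes of the group on chromosomes 1 to 4. Of the control PolIII list, 89.5% lay on chromosomes 1 to 4, beside 20.6% of the Kap1 KD list. A control PolIII peak was in the window of 36.5% of the protein-coding genes on these chromosomes and of 3.50% elsewhere. The difference in PolIII peaks near the 4 genes therefore cannot be told apart from this property of the control list. With 1 library per condition, none of these differences could be tested.

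Absence from a polymerase list has a further limit. The peaks of these lists are numbered along the genome with gaps, and a gap at a promoter could hide a call removed before deposit. Of the 5 promoters without a control PolII peak, 1 (Prox1) lay in such a gap, and of the 5 without a Kap1 KD PolII peak, 0 did. Over all promoters without a peak the share in a gap was 21.9% for control PolII and 14.7% for Kap1 KD PolII. For PolIII it was 2 of 8 in the control (51.0% of all promoters without a peak) and 3 of 8 under Kap1 KD (51.1%). Under Kap1 KD the PolIII gaps were 18969 kb long at Hnf4a and Cebpb, which share 1 gap, and 8220 kb long at Foxa2, so they say little about a given promoter, and Prox1 could not be placed because no later peak was listed on its chromosome.

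The promoters were also searched for short motifs. The motifs searched, on both strands within 250 bp of the start, were FOX (TGTTTAC), HNF4 (CAAAGTCC), a core of the HNF1 site (GTTAAT), HNF6 (ATCAAT), C/EBP (TTGCNNAA), a TATA box (TATAAA), SP1 (GGGCGG) and the CCAAT box (CCAAT). The SP1 motif was in all 8 promoters, against 52.6% of 22361 promoters, and the CCAAT box in 5, against 48.1%. The TATA letters were in Foxa3, Cebpa, Cebpb and Prox1, against 16.7%. They began 30 bases before the start of Cebpa and 37 before that of Foxa3, near the usual place of a TATA box. In Prox1 the match lay 181 bases before the start on the other strand, and in Cebpb no match lay before the start. HNF6 matched Hnf4a and Foxa2 (background 10.4%), FOX matched Foxa1 (4.29%), and HNF4 (2.40%), the HNF1 core (8.92%) and C/EBP (14.5%) matched none. The sequence before the Hnf4a-001 start held the HNF1 core at 2 places, 113 and 106 bases before it. GC content was 53.3 to 79%, where the median promoter had 57.1%, and the ratio of observed to expected CpG ranged from 0.27 at Hnf4a to 1.06 at Foxa1, where the median was 0.588. A match is a run of letters and not a bound site.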

How the data were processed

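ChIP-seq region lists were analysed for 8 of 13 samples. The other 5 are sequenced inputs and were not analysed here. Per the labels and the methods of the study, the authors mapped reads with Bowtie to mm9, used MACS with total input as the control for KAP1 and PolII, and used ChIP-part for the histone marks. The program used for PolIII and the options of all programs are not given in the sources used here. The control cells received a control shRNA according to the labels, whereas the methods name an empty vector. The deposited score of each KAP1, PolII and PolIII peak, whose meaning is not stated, served only to rank peaks within a list, and histone regions, which have no score, were ranked by width. No read counts were given, so depth could not be taken into account.

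Groups came from the antibody and cell labels. Region files were read as BED and positions are given counting from 1. A region was counted where it shared at least 1 bp with the promoter, gene or window. Genes, transcript starts and bases came from GENCODE M1 and the NCBIM37 (mm9) genome. Where a symbol looked up by name had several genes the longest was used, while counts over all genes and nearest starts included every gene. Of 20 other hepatocyte factors listed, 19 were found by symbol as protein-coding genes (Cebpd was not). Of 12 factors of other lineages 11 were found in this way (Spi1 was not). The 8 genes, the lists of genes and the rules were chosen with earlier results of these data known. Wilson intervals are at 95%. Distances are from the edge of a region to the 5′ end. Python 3.11.15 and numpy 2.4.6 were used, and the overlap functions were tested on simulated data. Other promoter widths, transcript starts, windows and parts of each list were tried as alternatives.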

Additional observations from a re-analysis of the deposited data

Results flagged for a closer look

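The change in the number of peaks within 50 kb of the 8 genes, Kap1 KD minus control, was 4 for PolII and -6 for PolIII. It drew attention because the directions are opposite for the 2 polymerases. The difference was not tested, since each condition has 1 library for each polymerase. The lists moved the same way over all protein-coding genes. The share with a PolII peak in the window was 37.5% in the control and 56.2% under Kap1 KD, with lists of 5015 and 12862 peaks, and for PolIII it was 11.6% and 3.72%, with lists of 2772 and 431.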

How the results depend on the processing

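Of 63 alternatives over 10 results, 49 stayed within 1.5 times the reported value and 14 did not. The 49 include counts of 0 that stayed at 0 and counts that went from 3 to 2 genes, so the tally is not a measure of stability. The H3K9me3 and PolIII promoter counts were 0 and the control PolII promoter count was 3 under all of their alternatives. KAP1 at promoters fell from 3 to 1 gene (Cebpb) with only the peaks above the median score. H3K27ac at promoters fell from 3 to 1 gene (Foxa2) with 100 bp to each side and when at least 0.5 of the promoter had to be covered. H3K4me1 at promoters was at 2 genes with 500 bp, 3 genes with 1000 bp and 0 genes with 0.5 covered, in place of 1. The median number of H3K27ac regions, reported as 7, was 2.5 with 10 kb around the gene, 17.5 with 100 kb, 4.5 with regions under 1 kb apart merged, 2.5 when only regions nearest to the gene counted and 3 with only regions above the median width. For H3K4me1, reported as 11.5, the median was 4.5 with 10 kb, 5 for regions nearest to the gene and 6 for those above the median width. Smaller windows and shorter lists hold fewer regions by construction. With as many highest-scoring Kap1 KD PolII peaks as the control list has, 2 promoters kept a peak (Foxa2 and Cebpb). Foxa2 kept H3K27ac at the promoter, and Onecut1 had no H3K27ac region in its window, in every alternative run. No paired analysis was possible because each group holds 1 library. Read depth, which limits what a caller can find, is unknown.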
